A study of Sus scrofa with 8 samples.

Results

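The sarcomere is the contractile unit of heart muscle. This section describes its genes and those of the Z-disc in left ventricular muscle of pigs after myocardial infarction. The genes were taken by symbol from the array annotation: the myosin heavy and light chain, myosin-binding protein, myomesin, myozenin, myotilin, troponin, tropomyosin, alpha-actinin, tropomodulin, leiomodin, PDLIM and CSRP families, plus cardiac and skeletal alpha-actin, titin, desmin, LDB3, TCAP and nebulin. In all, 68 probe sets carried such a symbol alone, out of 23999 tested. For each gene the brightest probe set over the 8 arrays was used, which gave 48 genes of the 6765 that the annotation names. The family prefixes also took in MYLK, a kinase of myosin light chains, and MYLIP, a ubiquitin ligase that is no sarcomere protein. MYH6, MYBPC3, ACTA1 and LDB3, among others, had no probe set with that symbol alone and are not analysed here. Of the genes listed for each role, 4 of 9 were measured for the cardiac thick filament and 6 of 8 for the thin filament. For titin and the M-band it was 3 of 4, and for the Z-disc and desmin 7 of 10.

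All 8 animals were castrated male Yorkshire pigs less than 1 year old, with a mean weight of 54.5 kg per the labels, and all had undergone infarction. The tissue lay away from the infarct. Of the animals, 3 received no treatment, 3 received glial growth factor 2 (GGF2, a form of neuregulin-1) at 0.67 mg/kg per infusion (low dose) and 2 received 2.0 mg/kg per infusion (high dose), both over 4 weeks. Each array measured a different pig, there was no group without infarction, and the animals are numbered only by their order in the labels. Consecutive tag numbers were carried by both high-dose pigs, by untreated pigs 1 and 3, and by untreated pig 2 and low-dose pig 1. What these numbers stand for is not given in the sources used here, so the high dose and whatever its pigs' tag numbers share cannot be told apart.

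In the sarcomere, thick filaments of myosin pull on thin filaments of actin, and troponin and tropomyosin make that pull depend on calcium. Titin spans from the Z-disc, where alpha-actinin anchors the thin filaments, to the M-band, where myomesins tie the thick filaments together. Heart, skeletal, smooth and non-muscle cells use different isoforms of most of these proteins, and a stressed ventricle is known to shift between some of them. Neuregulin-1 acts on cardiac muscle cells through ERBB receptors and is known to affect sarcomere organisation in cultured cells.

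Expression is given as RMA values on the log2 scale, on which a difference of 1 is a doubling. Array medians lay between 5.34 and 5.39, and correlations between arrays between 0.981 and 0.994. Actin control probe sets at the 3' end exceeded those at the 5' end, a measure of RNA integrity, by 4.48 to 5.01 in untreated, 4.87 to 5.26 in low-dose and 4.47 to 4.55 in high-dose animals. The labelled tissue was checked against 12 cardiac muscle markers that are no members, of which 8 were measured. All 8 were above background, with PLN, CKM, CKMT2, FABP3 and ATP2A2 at means between 13.42 and 14.02. The summed signal of these 8 was 16.01 to 16.15 (log2) in untreated, 15.95 to 16.15 in low-dose and 16.19 to 16.22 in high-dose animals. The high-dose animals were thus highest, by a narrow margin. Such a sum is led by its brightest markers. Of these, FABP3 was at 0.37 and CKM at 0.19 in high dose against untreated, and PLN, ATP2A2 and CKMT2 at 0.05, 0.03 and 0.00. In whole tissue, fewer cells of a type and less RNA in each cell cannot be told apart.

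Transcripts of the proteins that make the ventricular sarcomere contract showed no detectable difference between the groups. With limma over all probe sets, 0 of the 48 genes had an adjusted p under 0.05 in low dose against untreated, where 0% of all probe sets did. The same held for high dose against untreated (0% of all probe sets) and for both doses against untreated (0%). For high dose against low dose, 0 of 48 passed and 0.025% of all probe sets did. At an unadjusted p under 0.05 there was 1 gene at the low dose (4.5% of all probe sets), 3 at the high dose (7.97%), 4 in high against low dose (10.2%) and 2 for both doses together (4.83%). As shares of the 48 genes these were 2.08%, 6.25% and 8.33% in the first 3 comparisons, below the share over all probe sets in each. Leaving out single arrays moved these counts to between 0 and 4, 1 and 4, 2 and 6, and 0 and 3, and the probe sets passing the adjusted threshold to between 0 and 19 for the high dose against untreated and 0 and 7 for high against low dose. Of the 48 genes, 31 lay above the untreated mean at the low dose (52% of all probe sets), 27 at the high dose (53.3%) and 29 for both doses together (53.3%), and 23 were higher at the high than at the low dose (51.1%). Their median log2 change was 0.04 for either dose, against 0.01 over all probe sets. Both doses were compared with the same 3 untreated animals.

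**Figure D1:**
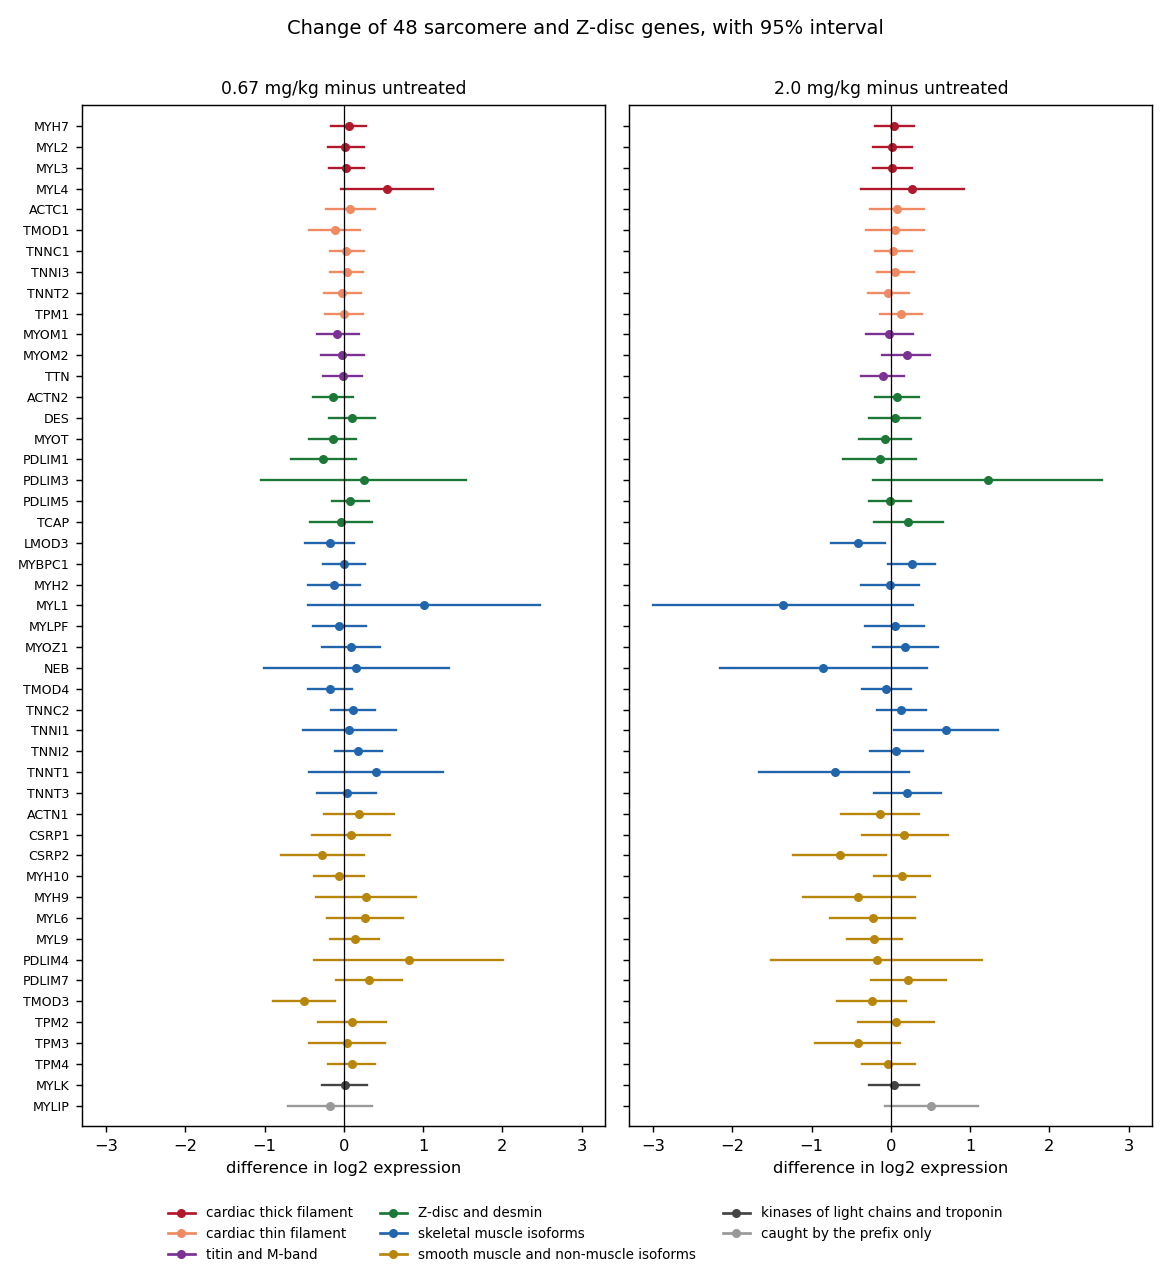
Each point is the difference in log2 expression from the 3 untreated pigs for a member gene at 0.67 mg/kg (left, 3 pigs) or 2.0 mg/kg (right, 2 pigs), bars are 95% intervals from limma, and colours give the gene's role. Intervals of the ventricular thick and thin filament genes other than MYL4 stay between -0.44 and 0.42, while MYL1, NEB, PDLIM3 and PDLIM4 have intervals wider than 2 log2 units.

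Of the thick filament genes of the ventricle, MYH7, the slow beta-myosin heavy chain, measured 14.87, 14.77 and 14.88 in the untreated pigs, 14.94, 14.93 and 14.83 at the low dose and 14.89 and 14.88 at the high dose. The groups overlapped. Its log2 change was 0.06 ± 0.10 (SE) at the low and 0.04 ± 0.11 at the high dose, with 95% intervals of -0.16 to 0.28 and -0.20 to 0.29 (limma adjusted p = 0.998 and 0.964). The regulatory light chain MYL2, which tunes cross-bridge formation, measured 14.68, 14.67 and 14.74 untreated, 14.63, 14.82 and 14.71 at the low dose and 14.70 and 14.74 at the high dose. Its change was 0.02 at either dose. The ventricular essential light chain MYL3 measured 14.27, 14.07 and 14.14 untreated, 14.20, 14.21 and 14.17 at the low dose and 14.18 in both high-dose pigs. It differed by 0.03 at the low and 0.02 at the high dose. In both light chains all treated pigs lay within or close to the untreated range.

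These readings stood close to the top of the scale, which ended at 15.01 in the deposited table. A mean of 14 or more was reached by 25 probe sets, and 5 of them were members: MYH7, MYL2, MYL3, TNNC1 and TNNI3. An increase in these 5 genes had little room to show, so their intervals bound the measured signal and not the amount of transcript.

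The thin filament gave the same picture. Cardiac alpha-actin (ACTC1) measured 13.89, 13.74 and 13.92 untreated, 13.90, 13.73 and 14.18 at the low dose and 13.91 and 13.95 at the high dose, with a change of 0.08 at either dose. The calcium-binding troponin C (TNNC1) differed by 0.03 at both doses, with 14.60, 14.53 and 14.63 untreated, 14.63, 14.65 and 14.58 at the low dose and 14.63 and 14.62 at the high dose. Cardiac troponin I (TNNI3), the inhibitory subunit and a target of beta-adrenergic phosphorylation, measured 14.71, 14.73 and 14.76 untreated, 14.78, 14.77 and 14.75 at the low dose and 14.81 and 14.76 at the high dose. Before rounding, both high-dose pigs were above all untreated ones, by a mean of 0.05 ± 0.10 (SE, limma adjusted p = 0.953). High-dose pig 2 and untreated pig 3 both rounded to 14.76. Cardiac troponin T (TNNT2), which binds tropomyosin, measured 13.89, 13.66 and 13.77 untreated, 13.81, 13.73 and 13.73 at the low dose and 13.75 and 13.74 at the high dose. Its values overlapped in all groups, with changes of -0.02 and -0.03.

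Alpha-tropomyosin (TPM1), which covers the myosin-binding sites of actin, measured 13.59, 13.54 and 13.40 untreated, 13.51, 13.43 and 13.60 at the low dose and 13.63 and 13.65 at the high dose. The high-dose pigs lay above all others, by 0.13 ± 0.12 (SE) against untreated (limma adjusted p = 0.85). A less bright TPM1 probe set went the other way, with 10.08, 10.27 and 9.38 untreated, 9.90, 10.96 and 9.81 at the low dose and 9.29 and 9.56 at the high dose. Its change was -0.48 ± 0.37 at the high dose and 0.31 at the low dose, with overlapping groups. A dim one (mean 4.98) was at -0.13 and -0.21. Tropomodulin-1 (TMOD1), which caps the pointed ends of thin filaments, was at -0.11 and 0.05.

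Titin (TTN), the molecular spring of the sarcomere, measured 13.85, 13.87 and 13.97 untreated, 13.99, 13.92 and 13.75 at the low dose and 13.85 and 13.74 at the high dose. Its change at the high dose was -0.10 ± 0.12 (SE, limma adjusted p = 0.898) on this probe set and -0.14 on a less bright one with a mean of 12.19. The myomesins MYOM1 and MYOM2, which cross-link myosin at the M-band, were at -0.02 and 0.20 at the high dose and at -0.08 and -0.02 at the low dose. MYOM2 was higher in both high-dose pigs, at 13.61 and 13.69, than in any other animal, whose values lay between 13.27 and 13.56 (limma adjusted p = 0.776).

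**Figure D2:**
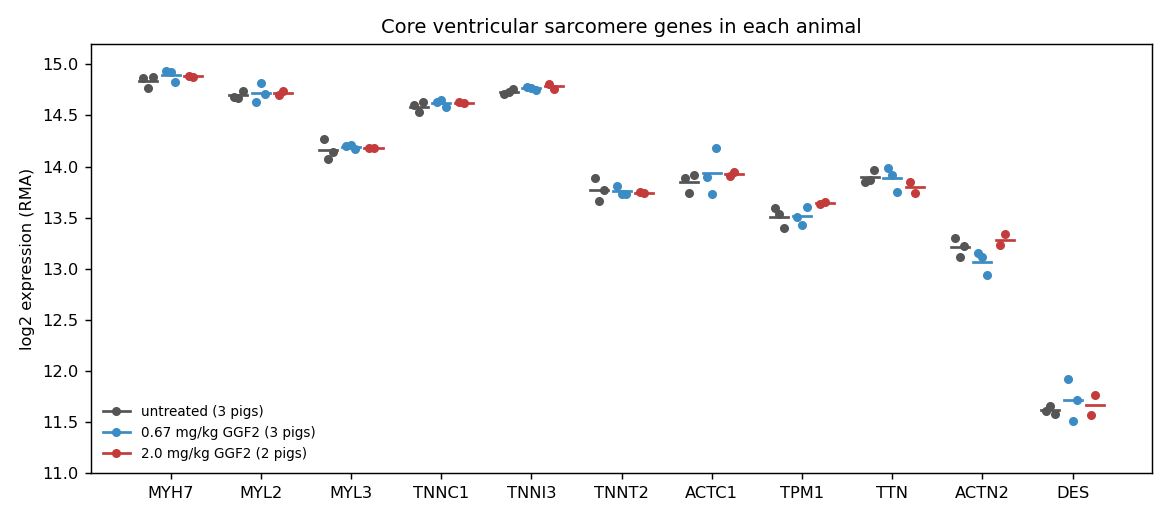
Each point is the RMA log2 expression of a core ventricular sarcomere gene in a single pig, and short lines are group means. The values of all 8 pigs span at most 0.45 log2 units in each of the 11 genes, and the high-dose pigs stand above all others only for TPM1.

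At the Z-disc, sarcomeric alpha-actinin (ACTN2), which cross-links thin filaments, measured 13.30, 13.11 and 13.22 untreated, 13.15, 13.11 and 12.94 at the low dose and 13.23 and 13.34 at the high dose. Its change was -0.14 ± 0.11 at the low and 0.08 ± 0.12 at the high dose, and the high-dose pigs lay above the low-dose ones by 0.22 (limma adjusted p = 0.603). A less bright ACTN2 probe set was at 0.03, 0.06 and 0.02 in these comparisons. Desmin (DES), the intermediate filament that links neighbouring Z-discs, measured 11.61, 11.66 and 11.58 untreated, 11.92, 11.51 and 11.71 at the low dose and 11.57 and 11.76 at the high dose. The groups overlapped, and the changes were 0.10 and 0.05. The titin cap TCAP, with 12.83 to 12.97 untreated and 13.14 and 13.09 at the high dose, differed by 0.22 (limma adjusted p = 0.839), and its lowest value of all, 12.44, was in low-dose pig 3.

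Myotilin (MYOT) was at -0.14 and -0.07 at the low and high dose and PDLIM5, an adaptor for signalling kinases, at 0.08 and -0.01. PDLIM1, another PDZ and LIM domain adaptor, measured 11.49, 11.23 and 11.34 untreated, 11.14, 11.45 and 10.71 at the low dose and 11.20 and 11.23 at the high dose. It differed by -0.26 ± 0.18 at the low dose, with the lowest value again in low-dose pig 3, and by -0.06 without that pig. PDLIM3, which binds alpha-actinin, was the most variable Z-disc gene, at 6.17, 6.88 and 5.65 untreated, 6.80, 5.46 and 7.17 at the low dose and 6.56 and 8.35 at the high dose. Its mean change of 1.22 ± 0.63 at the high dose (limma adjusted p = 0.694) came from high-dose pig 2 in the main: the change was 0.33 without that pig and 2.11 without the other high-dose pig.

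Of the genes outside this core, 13 are isoforms known mainly from skeletal muscle, and MYL1, the member with the largest spread of the 48, was among them. MYL1, the fast skeletal essential light chain, measured 10.20, 8.44 and 10.00 untreated, 11.90, 9.82 and 9.96 at the low dose and 7.63 and 8.73 at the high dose. Both high-dose pigs lay below all low-dose pigs, but untreated pig 2 lay between them. The difference between high and low dose was -2.37 ± 0.72 (SE), a 5.19-fold lower signal with an unadjusted p of 0.00985 (limma adjusted p = 0.33). Against untreated the change was -1.36 ± 0.72 at the high dose and 1.01 ± 0.64 at the low dose. The low-dose value rested on untreated pig 2 and low-dose pig 1 and was -0.21 without both animals. The high-dose value was -1.91 without untreated pig 2, -0.81 without high-dose pig 1 and -1.91 without high-dose pig 2.

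TNNT1, the slow skeletal troponin T, measured 10.71, 9.94 and 11.07 untreated, 11.26, 10.93 and 10.75 at the low dose and 9.22 and 10.51 at the high dose. Here too the high-dose pigs lay below all low-dose pigs, by -1.12 ± 0.41 (SE, limma adjusted p = 0.413), and overlapped the untreated ones, with -0.71 ± 0.41. High-dose pig 1 accounted for most of that: without it the change against untreated was -0.06 and the difference between the doses -0.47. Without high-dose pig 2 these were -1.36 and -1.77, and without untreated pig 3 the change was -0.46. Nebulin (NEB), a ruler of thin filament length in skeletal muscle, measured 8.99, 9.36 and 7.82 untreated, 8.44, 8.96 and 9.26 at the low dose and 6.97 and 8.78 at the high dose, with overlapping groups. High-dose pig 1 thus had the lowest value of all 8 for MYL1, TNNT1 and NEB alike, and low-dose pig 1 the highest for MYL1 and TNNT1. The 3' to 5' gap of the actin controls matched MYL1 at the extremes but not in between. It was largest in low-dose pig 1, at 5.26, and smallest in high-dose pigs 1 and 2, at 4.55 and 4.47, and untreated pig 2, at 4.48, the 3 animals with the lowest MYL1 values. Untreated pig 1, second highest for MYL1, had an actin gap of 4.63. That was below low-dose pigs 2 and 3, at 4.87 and 4.92, and untreated pig 3, at 5.01. In the GAPDH controls the gap was also largest in low-dose pig 1, at 1.90, and smallest in the high-dose pigs, at 1.40 and 1.36. There untreated pig 1, whose MYL1 value was second highest, was at 1.41 and untreated pig 2 at 1.57, so the order of these pigs differed from that of MYL1. The part of RNA quality in the MYL1 and TNNT1 values was not tested.

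TNNI1, the slow skeletal troponin I that the fetal heart also uses, went the other way. It measured 5.18, 5.44 and 5.81 untreated, 5.86, 5.09 and 5.70 at the low dose and 5.86 and 6.48 at the high dose. Its change at the high dose was 0.69 ± 0.29 (SE), a 1.62-fold higher signal with an unadjusted p of 0.0399 (limma adjusted p = 0.595), and the high-dose pigs lay above all untreated ones. It was 0.38 without high-dose pig 2 and 1.00 without high-dose pig 1. Low-dose pig 1 equalled the lower of the high-dose pigs.

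The remaining 9 of these isoforms were dim. LMOD3, MYBPC1, MYH2 and TMOD4 had means below 3.78, the lower quartile of all probe set means, close to background. LMOD3, a leiomodin that nucleates actin, measured 2.86, 3.20 and 3.05 untreated, 2.81, 2.73 and 3.04 at the low dose and 2.53 and 2.72 at the high dose. Both high-dose pigs lay below all 6 other animals, the second of them by 0.01. The difference of -0.42 from untreated had the smallest unadjusted p of the members at the high dose, 0.0231 (limma adjusted p = 0.527). MYBPC1, a slow skeletal myosin-binding protein, measured 3.56, 3.69 and 3.86 untreated, 3.81, 3.62 and 3.70 at the low dose and 4.01 and 3.93 at the high dose. Its high-dose values lay above all others. MYH2, a fast skeletal heavy chain, measured 2.92, 3.39 and 3.14 untreated, 3.07, 2.91 and 3.11 at the low dose and 3.02 and 3.26 at the high dose, with overlapping groups. The fast isoforms MYLPF, TNNC2, TNNI2, TNNT3 and MYOZ1 had means between 4.23 and 5.42 and changes between -0.06 and 0.21 at either dose.

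Skeletal muscle markers outside the members were measured for 6 of 10 genes. The myogenic factors MYF5, MYOD1 and MYF6, which define the skeletal lineage, were below that quartile, at means of 2.61, 3.41 and 3.74, and the skeletal calcium pump ATP2A1 was at 4.88. Their summed signal was 6.55 to 6.98 untreated, 6.64 to 6.96 at the low dose and 6.94 to 6.96 at the high dose (log2).

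MYL4, the atrial essential light chain that the embryonic ventricle also makes, measured 6.53, 6.90 and 7.28 untreated, 6.95, 7.48 and 7.89 at the low dose and 7.14 and 7.21 at the high dose. The groups overlapped, and the change was 0.54 ± 0.25 (SE, unadjusted p = 0.0659, limma adjusted p = 0.998) at the low and 0.27 ± 0.28 at the high dose. The low-dose value was 0.31 without low-dose pig 3 and 0.35 without untreated pig 1. Low-dose pig 3 had the highest MYL4 value and also the highest of all 8 for sarcolipin (SLN), at 7.25, and DKK3, at 10.43. Those are 2 of the 4 measured atrial markers outside the members, of 7 listed. NPPA in that pig, at 8.28, was below all untreated pigs, at 8.45 to 8.59, and above the other treated ones. GJA5 in that pig, at 7.49, was below low-dose pig 2, at 7.72, and above the rest. The summed signal of the 4 was 9.69 to 10.35 untreated, 9.66 to 10.98 at the low dose and 9.67 to 9.83 at the high dose, and its part in the MYL4 value was not tested.

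**Figure D3:**
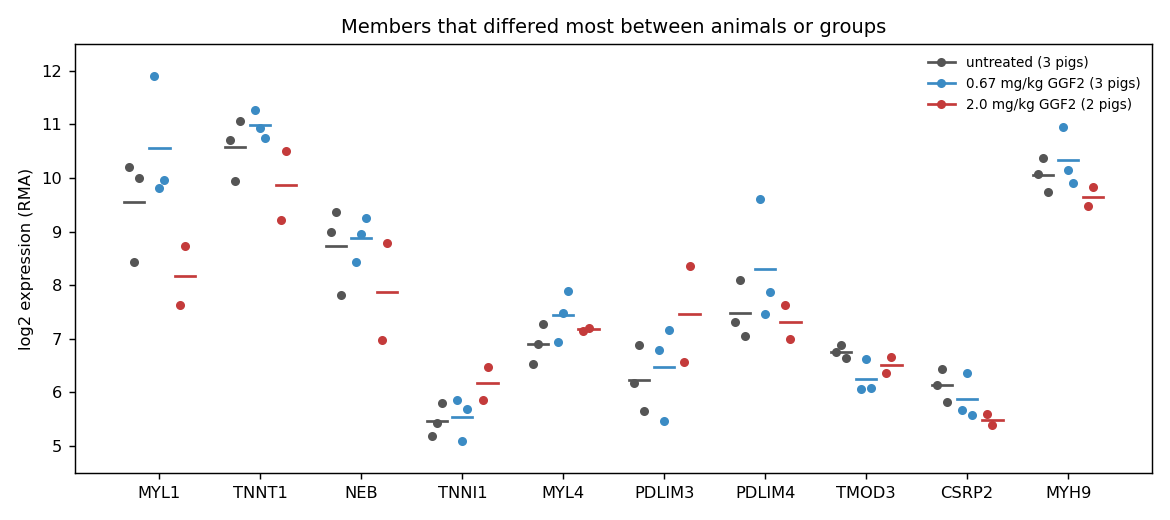
Points are the RMA log2 expression of 10 members in single pigs, and short lines are group means. MYL1 and TNNT1 are lower in both high-dose pigs than in every low-dose pig, TNNI1 and CSRP2 separate high-dose from untreated pigs, and the other genes overlap except TMOD3 between low dose and untreated and MYH9 between the doses.

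The 13 smooth muscle and non-muscle isoforms leaned higher at the low dose and lower at the high dose, with 10 of 13 (52% of all probe sets) and 4 of 13 (53.3%) above the untreated mean. Their medians were 0.10 and -0.18, against 0.01 over all probe sets in both comparisons. Between the doses, 3 of 13 (51.1% of all probe sets) were higher at the high dose, with a median of -0.33. None passed with limma in any of these comparisons, and at an unadjusted p under 0.05 there was 1 of 13 in each, against 4.5%, 7.97% and 10.2% of all probe sets, which is near the background.

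CSRP2, a LIM protein of smooth muscle, measured 6.14, 6.43 and 5.83 untreated, 5.67, 6.36 and 5.58 at the low dose and 5.60 and 5.39 at the high dose. The high-dose pigs lay below all untreated ones, by -0.64 ± 0.26 (SE, unadjusted p = 0.0352, limma adjusted p = 0.581). The non-muscle myosin heavy chain MYH9, a motor of cell shape and migration, measured 10.07, 10.37 and 9.73 untreated, 10.96, 10.15 and 9.91 at the low dose and 9.47 and 9.83 at the high dose. Its difference between high and low dose was -0.69 ± 0.31 (SE, limma adjusted p = 0.503), with no overlap, and -0.38 without low-dose pig 1, while a dim MYH9 probe set (mean 5.09) was at 0.14.

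The light chains that pair with such myosins were also lower in both high-dose pigs than in every low-dose pig. MYL9, the regulatory chain of smooth muscle, measured 9.19, 8.97 and 8.83 untreated, 9.22, 8.94 and 9.26 at the low dose and 8.75 and 8.84 at the high dose. It differed by -0.35 ± 0.15 between the doses (SE, unadjusted p = 0.0477, limma adjusted p = 0.483). MYL6, the essential chain of smooth and non-muscle myosin, differed by -0.50 ± 0.24 between the doses. TPM3, a tropomyosin of slow and non-muscle cells, was at 8.32 and 8.39 at the high dose and at 8.51 to 9.02 untreated, a change of -0.42, a less bright TPM3 probe set was at -0.47 and a dim one (mean 5.24) at 0.01.

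TMOD3, the widely expressed tropomodulin, was the gene with the smallest p at the low dose. It measured 6.75, 6.88 and 6.65 untreated, 6.07, 6.62 and 6.08 at the low dose and 6.36 and 6.67 at the high dose. Low-dose pigs were all below the untreated ones, by -0.50 ± 0.17 (SE, unadjusted p = 0.018, limma adjusted p = 0.998). PDLIM4, an adaptor of actin stress fibres, measured 7.32, 8.10 and 7.05 untreated, 9.60, 7.46 and 7.87 at the low dose and 7.64 and 6.99 at the high dose. Its low-dose change of 0.82 ± 0.52 was led by low-dose pig 1 and was 0.17 without it, and a dimmer probe set (mean 4.75) was at 0.03. PDLIM7 measured 3.46, 3.82 and 3.63 untreated, 3.79, 4.27 and 3.80 at the low dose and 3.61 and 4.10 at the high dose, close to background. MYH10, a second non-muscle heavy chain, measured 3.39, 3.71 and 3.67 untreated, 3.63, 3.43 and 3.52 at the low dose and 3.90 and 3.56 at the high dose, with a mean below the quartile.

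These isoforms are made by fibroblasts, vessel cells and blood cells as well as by smooth muscle. Of the smooth muscle and pericyte markers outside the members, 8 of 9 were measured, with summed signals of 12.49 to 13.12 untreated, 12.87 to 13.60 at the low dose and 12.59 to 12.81 at the high dose. Fibroblast markers, 8 of 10 measured, stood at 13.40 to 13.85, 13.26 to 13.85 and 12.45 to 12.95, and macrophage markers, 7 of 10 measured, at 9.76 to 10.31, 9.79 to 10.44 and 9.17 to 9.25. Endothelial markers, 8 of 9 measured, stood at 11.01 to 11.19, 10.72 to 11.26 and 10.52 to 10.93. The sum of the smooth muscle and pericyte markers hid opposite changes. At the high dose 4 of these 8 were higher than untreated (53.3% of all probe sets) and 4 lower. CNN1 was at 1.99 and SMTN at 0.43, while ACTG2 was at -0.98 and RGS5 at -0.93 (limma adjusted p = 0.454, 0.4, 0.482 and 0.526). The summed fibroblast and macrophage signals were lower in both high-dose pigs than in all other animals. In the high-dose pigs MYL6, MYL9 and MYH9 lay below the low-dose values but overlapped the untreated ones. Their changes against untreated were -0.23, -0.21 and -0.41. Brighter markers weigh more in such a sum. At the high dose 2 of 8 fibroblast and 1 of 7 macrophage markers were higher than untreated (53.3% of all probe sets). They were COL3A1 at 0.83, TCF21 at 0.13 and CD14 at 0.16. The part of these cell types in the values of MYL6, MYL9 and MYH9 was not tested.

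MYLIP, the ubiquitin ligase caught by its prefix, measured 9.27, 9.96 and 10.01 untreated, 9.51, 9.26 and 9.94 at the low dose and 10.24 and 10.27 at the high dose. The high-dose pigs lay above all others, by 0.68 ± 0.26 (SE) against the low dose (unadjusted p = 0.029, limma adjusted p = 0.424) and 0.51 ± 0.26 against untreated. The second of these was 0.27 without untreated pig 1. The light chain kinase MYLK was at 0.01 and 0.04 at the low and high dose.

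High-dose pigs stood apart from other groups about as often in the 48 genes as in the whole table. High-dose and untreated values did not overlap for 13 of 48, against 26.6% of all probe sets, and high-dose and low-dose values for 12 of 48, against 26.2%. Between low dose and untreated, TMOD3 alone of 48 separated, against 9.1%. No member separated both doses from untreated, against 2.75%.

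The spread between animals of a group differed widely among the members. The within-group SD had a median of 0.172 over the 48 genes and 0.174 over all probe sets. It ran from 0.0242 for TNNI3 to 1.02 for MYL1. Over the 15 members with a mean of 12 or more it had a median of 0.0827, against 0.117 over the 342 probe sets that reached that mean. These sets were not matched in brightness: 5 of the 15 members had a mean of 14 or more, and 25 of the 342 probe sets. Those 5 members had SDs between 0.0242 and 0.0666, against a median of 0.0418 over the 25. Over the 28 members between the lower quartile and 12 the SD had a median of 0.269, against 0.193 over 17657 probe sets. Over all probe sets the median spread rose from 0.119 at means up to 3 to 0.21 at means between 7 and 8. From there it fell with brightness, to 0.0418 at means of 14 or more.

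**Figure D4:**
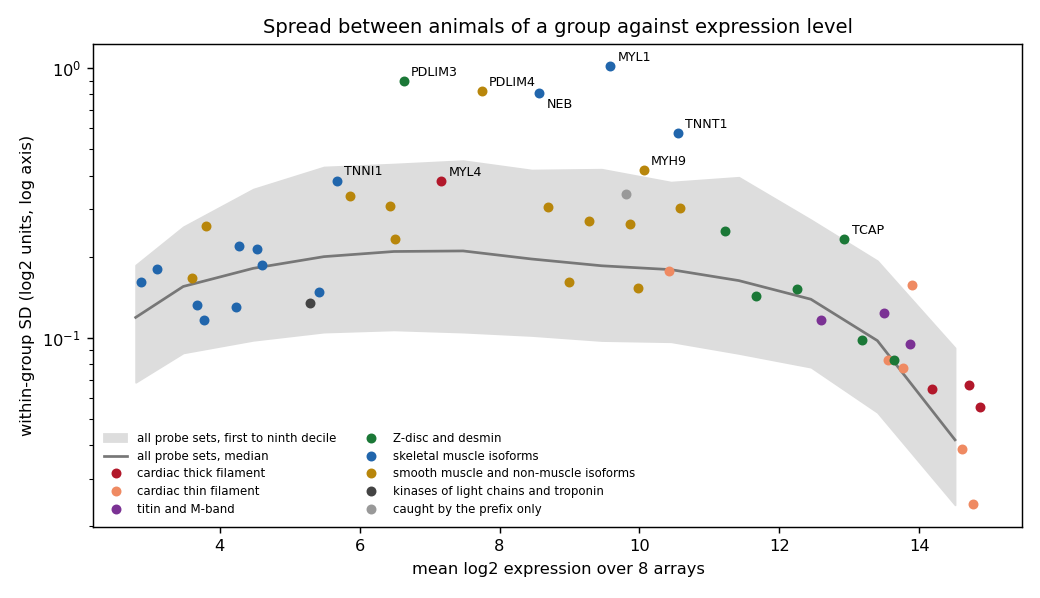
Points are the within-group SD (log axis) of the 48 members against their mean log2 expression over 8 arrays, coloured by role, with the median (line) and the first to ninth decile (band) of all 23999 probe sets. The bright ventricular genes lie low, where all bright probe sets do, and PDLIM3, PDLIM4, NEB, MYL1 and TNNT1 lie farthest above the band.

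Genes that assemble, anchor or regulate the sarcomere but are no members were read from a list of 58 symbols, of which 31 were measured. The list gave KLHL41 and CAVIN4 also under their older symbols, KBTBD10 and MURC. None of the 31 passed with limma in any comparison. At the high dose 21 were higher (53.3% of all probe sets) and 10 lower, with a median of 0.15 against 0.01 over all probe sets, and at the low dose 18 were higher and 13 lower, with a median of 0.04. At an unadjusted p under 0.05, 4 of 31 were higher and 0 lower at the high dose, against 7.97% of all probe sets in either direction. Myocardin (MYOCD), a partner of serum response factor, measured 6.06, 6.15 and 6.09 untreated, 6.16, 6.01 and 6.36 at the low dose and 7.71 and 7.29 at the high dose (limma adjusted p = 0.0505 against untreated). The myosin chaperone UNC45B measured 8.77, 8.58 and 8.58 untreated, 8.81, 8.85 and 8.90 at the low dose and 9.08 and 8.95 at the high dose, a change of 0.38 ± 0.12 (SE, limma adjusted p = 0.448).

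KLHL41, which stabilises nebulin in muscle, measured 10.98, 11.59 and 11.21 untreated, 11.53, 10.82 and 11.39 at the low dose and 11.94 and 11.78 at the high dose, a change of 0.60 ± 0.24 (SE, limma adjusted p = 0.586). The co-chaperone BAG3, which helps clear damaged Z-disc proteins, measured 10.08, 11.56 and 10.06 untreated, 11.54, 9.98 and 10.93 at the low dose and 11.78 and 11.77 at the high dose. Its change at the high dose was 1.20 ± 0.53 (SE, limma adjusted p = 0.623). MYOCD, UNC45B, KLHL41 and BAG3 were picked from the list for the smallest p in high dose against untreated. Such a choice favours genes whose groups do not overlap. For these 4 genes both high-dose pigs lay above all 6 other animals, although BAG3 in untreated pig 2 and low-dose pig 1 came within 0.5 of them. Over all probe sets, high-dose and untreated values did not overlap for 26.6%, in either direction and whatever the low-dose values. The share with both high-dose pigs above all 6 other animals was not computed.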

How the data were processed

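Left ventricular RNA of 8 pigs was measured on Affymetrix porcine arrays, 1 for each animal. The authors deposited log2 expression values for each probe set, made with RMA and Partek 6.6 per the submitters' processing notes (no other setting is recorded there). RMA equalises the distributions of the arrays, so a shift shared by most genes would not be seen. After 124 control probe sets were left out, a linear model with group means was fitted over the 8 arrays with limma 3.58.1 under R 4.3.3 (5 residual and 3.50 prior degrees of freedom), with Benjamini-Hochberg adjustment over 23999 probe sets and a threshold of 0.05. Intervals are 95% intervals from that fit. Groups came from the treatment label. The fit was tested on simulated data.

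Of the tested probe sets, 10069 carried 1 symbol in the platform annotation, 198 several and 13732 none. The Entrez IDs of all 48 members led to the same symbol in RefSeq. Values per animal are given for core ventricular genes, for the 6 members with the smallest p in each pairwise comparison, and for members with the extremes of mean or range, and of the wider sarcomere list for the 4 with the smallest p at the high dose. Others, such as MYL6, MYOM2, NEB, TCAP and TPM3, were added after their values were seen. Members, roles and lists were chosen with earlier results of these data known. Precision is set by the number of arrays, since no read depth exists.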

Additional observations from a re-analysis of the deposited data

How the results depend on the processing

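No paired analysis was possible, since each array measured a different pig and the labels give no pairing between groups. The number of members passing with limma stayed at 0 in every comparison under every alternative run: an intensity trend with a robust prior, a filter on dim probe sets, renewed quantile normalization, median centring, an average over the probe sets of each gene, fits of only 2 groups (not made for both doses together), array weights, leaving out untreated pig 2 and low-dose pig 1, and leaving out each array in turn. The smallest adjusted p of any named member was 0.0955, for MYL1 at the high dose without untreated pig 2 and low-dose pig 1. Leaving out a high-dose pig leaves 1 animal there, which is assumed to vary like the other groups.

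The members' median log2 change moved by more than its spread between animals (SD 0.017) in some fits. At the low dose it was 0.06 with dim probe sets left out, 0.01 with median centring and 0.00 without untreated pig 2 and low-dose pig 1. At the high dose these values were 0.02, 0.05 and 0.02, and renewed quantile normalization gave 0.00. Between the doses median centring gave 0.04. Leaving out single arrays gave 0.02 to 0.04 at the low dose, 0.01 to 0.04 at the high dose, -0.03 to 0.01 between the doses and 0.02 to 0.04 for both doses.

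Of 1744 values of named members under these alternatives, 76 had the opposite sign to the reported change, 48 of them with a single array left out. In 6 of the 76 the reported change was above 0.2 in size, and these were MYL1, TNNT1, PDLIM3 (under 2 alternatives) and MYH9 at the low dose and PDLIM7 at the high dose. The turns that also moved by more than the spread between animals follow. TPM1 was at -0.16, -0.20 and -0.06 with the mean of its probe sets, at the high dose, between the doses and for both doses. Between the doses DES was at 0.10 with the mean of its probe sets and TNNI3 at -0.01 with quantile normalization. TNNC1 between the doses was not among the 76, since its reported change rounded to 0, and was at 0.04 with median centring. MYL1 was at -0.21 at the low dose without untreated pig 2 and low-dose pig 1. With single arrays left out, such turns came in 2 changes: MYH10 at the high dose ran from -0.03 to 0.31 and TNNI3 between the doses from -0.01 to 0.04.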

Other observations

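Of the 48 genes, 13 had more than 1 probe set, 33 in all. Some less bright probe sets not described above differed from the brightest one. PDLIM5 had a probe set with a mean of 8.46 that was at 0.60 ± 0.24 (SE, limma adjusted p = 0.581) at the high dose and another with a mean of 10.66 at 0.31, while its brightest was at -0.01. Beta-tropomyosin (TPM2), found in slow skeletal and smooth muscle, was at 0.10 and 0.06 at the low and high dose on its brightest probe set. Its dimmest, with a mean of 7.53, was at 0.89 and 0.70, on values between 6.38 and 8.75.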
